A study of Mus musculus with 7 samples.

Results

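The peptide hormones of the pancreatic islet were examined in islet RNA from 7 mice on day 15 of pregnancy. The 8 genes were INS, Ins1, IAPP, Gcg, SST, PPY, PYY and GHRL, taken by name, ignoring case, from the 34082 gene names of the deposited table, and every name was found once. The table mostly uses human symbols. The row named INS holds 3 transcripts that RefSeq assigns to mouse Ins2, so INS stands here for Ins2. All 8 genes passed the filter on low values, which kept 14840 genes.

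The 4 βPrlR+/- mice carried Pdx1CreER and a floxed exon 5 of Prlr, the gene of the prolactin receptor, and received tamoxifen, which activates CreER. The 3 Prlr+/- mice lacked 1 allele of Prlr in all tissues and had neither Cre nor tamoxifen. All were pregnant C57BL/6 females, 3 to 4 months old by the labels and somewhat older by the methods, so both groups carried a Prlr deletion in β-cells and no mouse with intact Prlr was analysed here. The Pdx1 promoter, which drives Cre, is active mainly in β-cells of the adult islet and more widely in the embryonic pancreas. The series text calls the β-cell deletion homozygous where the methods call it heterozygous, and CkoWt is the term in the titles of the 4 samples. Genotype, Cre and tamoxifen differed together and cannot be told apart. Each library was made from 100 to 200 hand-picked islets of a single mouse, cultured overnight, and mice are numbered here in the order of their accession. PRLR itself had 45.04 ± 8.18 scaled TPM in βPrlR+/- mice (SD, n = 4) and 40.7 ± 8.96 in Prlr+/- mice (SD, n = 3), and the groups overlapped.

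Islet hormones are made as precursors that are cut in secretory granules. β-cells make insulin, which lowers blood glucose, and co-secrete islet amyloid polypeptide. The mouse has a pair of insulin genes, Ins2, which has the ancestral structure with an intron inside its coding sequence, and Ins1, a later copy without that intron. α-cells make glucagon, which raises blood glucose. δ-cells make somatostatin, which restrains the secretion of both. PP-cells make pancreatic polypeptide, peptide YY is its close relative, and ghrelin is made by rare ε-cells. During pregnancy prolactin and placental lactogens act on the receptor in β-cells, and the islet is known to enlarge and to secrete more insulin.

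The coding sequences of the insulin genes are shown first, because reads are divided between these genes by the bases at which they differ. Both are from GENCODE transcripts of GRCm38, and the first 300 coding bases of each are printed. Capitals mark the bases that are mismatched or unpaired when the whole coding sequences are aligned. Ins1 is coded in 1 piece at chr19:52264624-52264950 on the plus strand, and Ins2 at chr7:142678713-142679533 on the minus strand, a span that includes an intron.
Ins1: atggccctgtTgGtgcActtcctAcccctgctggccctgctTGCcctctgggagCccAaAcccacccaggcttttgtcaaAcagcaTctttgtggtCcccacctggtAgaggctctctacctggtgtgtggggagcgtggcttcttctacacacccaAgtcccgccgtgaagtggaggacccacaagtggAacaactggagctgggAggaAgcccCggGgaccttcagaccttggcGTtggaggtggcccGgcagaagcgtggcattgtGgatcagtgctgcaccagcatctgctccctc
Ins2: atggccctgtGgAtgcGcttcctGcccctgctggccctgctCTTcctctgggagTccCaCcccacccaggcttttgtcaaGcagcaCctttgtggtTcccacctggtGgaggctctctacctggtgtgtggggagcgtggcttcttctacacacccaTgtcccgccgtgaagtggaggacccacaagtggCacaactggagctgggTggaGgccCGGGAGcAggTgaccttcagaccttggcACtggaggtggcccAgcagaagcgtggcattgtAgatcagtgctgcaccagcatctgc

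The 2 coding sequences are 327 and 333 bases long. They were identical at 302 of 333 aligned positions (90.7%), with 25 mismatches and 6 unpaired bases. Of the 297 stretches of 31 bases in the coding sequence of Ins1, 47 (15.8%) also occur in transcripts of Ins2. Kallisto compares reads with transcripts by such stretches, so a read made up only of shared stretches would fit both INS and Ins1. How many reads were of this kind was not examined, and the division between the 2 genes is an estimate. Over the whole transcript of Ins1, 47 of 1032 stretches (4.55%) also occur in transcripts of Ins2. Of 497 stretches in whole transcripts of Ppy, 0 occur in those of Pyy.

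The hormone genes ranged from the bulk of all islet transcripts to a trace. Levels are given as TPM, a level per length of transcript whose total is the same in every mouse, so genes can be compared. Among βPrlR+/- mice 1 to 4, INS took 40.1%, 40.2%, 34.9% and 39.9% of all TPM, and among Prlr+/- mice 1 to 3 it took 43.4%, 40.8% and 45.2%. INS was thus the highest gene of the 8 in every mouse. Ins1 followed with 11.2% to 13.7% of all TPM, IAPP with 3.58% to 4.36%, and Gcg with 1.33% to 2.45%. PPY held 0.705% to 1.05%, SST 0.359% to 0.661% and PYY 0.317% to 0.538%. GHRL, at 0.000421% to 0.00180%, was the lowest by far, with PYY at 257 to 752 times its level. The order INS, Ins1, IAPP, Gcg, PPY, SST, PYY and GHRL held in 7 of 7 mice except for its 1 close pair, SST and PYY. SST lay above PYY in 6 of 7 mice, at 0.862 to 1.40 times its level. The ranges of these neighbours over the mice overlapped, and whether their levels differ within mice was not tested. The next closest step was from PPY to SST, at 1.32 to 2.27 times.

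**Figure D1:**
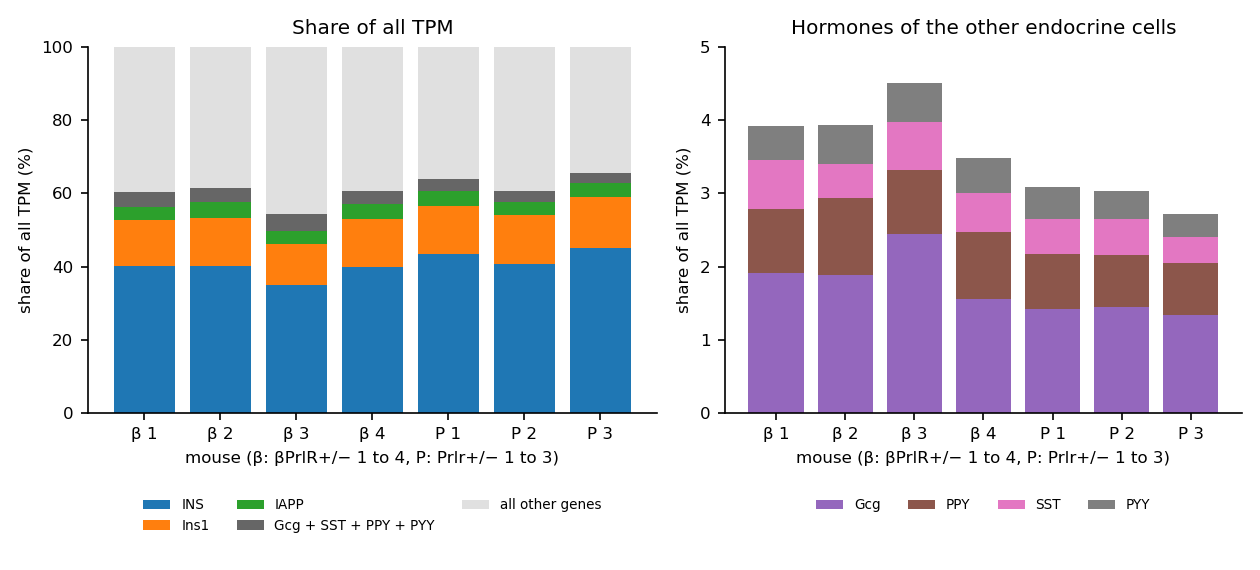
Share of all TPM (%) taken by the hormone genes in each of the 7 mice. The left plot stacks INS, Ins1, IAPP and the sum of Gcg, SST, PPY and PYY under all other genes, and the right plot enlarges the 4 hormones of the other endocrine cells; GHRL is too low to draw and is within the other genes. The 4 together took 3.48% to 4.51% in βPrlR+/- mice and 2.72% to 3.09% in Prlr+/- mice.

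The 8 genes together took 59.2% ± 3.28 of all TPM in βPrlR+/- mice (SD, n = 4) and 63.3% ± 2.52 in Prlr+/- mice (SD, n = 3). The sum of INS and Ins1 was 51.3% ± 3.45 and 56.5% ± 2.47 in the same groups. The sum of Gcg, SST, PPY and PYY was lower in Prlr+/- mice, at 3.92%, 3.94%, 4.51% and 3.48% in βPrlR+/- mice and 3.09%, 3.04% and 2.72% in Prlr+/- mice. These sums are descriptions and were not tested. Every Prlr+/- mouse lay below every βPrlR+/- mouse in the sum of the 4, which is what the stacked plot of shares shows. Of all 14840 genes tested, 8.42% were also lower in every Prlr+/- mouse on this scale. Within the 8 hormones, INS made up 65.5% ± 0.978 and 68.1% ± 0.801, while Ins1 made up 21.1% ± 0.484 and 21.1% ± 0.604 and IAPP 6.64% ± 0.415 and 6.13% ± 0.290. Gcg made up 3.33% ± 0.834 and 2.22% ± 0.181, PPY 1.57% ± 0.113 and 1.14% ± 0.0520, SST 0.978% ± 0.199 and 0.701% ± 0.1401, and PYY 0.860% ± 0.0954 and 0.604% ± 0.109. The islets are whole tissue, so fewer cells of a type and less RNA per cell cannot be told apart.

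A share of all TPM falls when another gene takes more. Each mouse's TPM was therefore also divided by a median-ratio size factor, and the result is called scaled TPM. Size factors ran from 0.883 to 1.11. On this scale the genes tested had a median log2 fold change of 0.0042, against -0.12 on TPM as deposited. Fold changes are Prlr+/- over βPrlR+/-.

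Of the β-cell hormones, INS had 424300, 375670, 314430 and 374983 scaled TPM in the order of βPrlR+/- mice 1 to 4, against 452745, 409671 and 511917 in that of Prlr+/- mice 1 to 3. Only Prlr+/- mouse 2 fell below the highest βPrlR+/- mouse. The difference was 0.30 on the log2 scale with a standard error of 0.13 from these mice, and the two-sided exact permutation p over the 35 splits of the mice was 0.0857, where the smallest possible is 0.0286. On TPM as deposited INS did not overlap between groups, with a log2 difference of 0.16 and an exact permutation p of 0.0286. Ins1 had 132912, 121803, 101115 and 123798 scaled TPM in βPrlR+/- mice and 137114, 132648 and 155591 in Prlr+/- mice. Its groups overlapped by the narrow margin between βPrlR+/- mouse 1 and Prlr+/- mouse 2, with a log2 difference of 0.25 ± 0.12 (SE) and an exact permutation p of 0.0857. On TPM as deposited its groups also overlapped, with a log2 difference of 0.099 and an exact permutation p of 0.171. IAPP, whose product aggregates into islet amyloid in humans and not in mice, had 38912, 40768, 33230 and 37377 scaled TPM against 42979, 36000 and 44786. Its groups overlapped, the log2 difference was 0.13 ± 0.11 (SE), and on TPM as deposited the sign turned, to -0.014. The scaled difference was 0.073 without βPrlR+/- mouse 3, 0.069 without Prlr+/- mouse 3 and 0.23 without Prlr+/- mouse 2.

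Of the hormones of other endocrine cells, Gcg had 20267, 17648, 22087 and 14553 scaled TPM in βPrlR+/- mice and 14813, 14573 and 15101 in Prlr+/- mice. The Prlr+/- mice lay close together, with a coefficient of variation of 1.78% against 17.6% (4.37% against 19.1% on TPM as deposited). On scaled TPM βPrlR+/- mouse 4 lay just below the lowest of them. The log2 difference was -0.31 ± 0.16 (SE), with an exact permutation p of 0.143. SST had 6994, 4333, 5815 and 4978 scaled TPM against 4882, 4999 and 4065. Its groups overlapped widely, with a log2 difference of -0.23 ± 0.19 (SE) and an exact permutation p of 0.286. The difference was -0.11 without βPrlR+/- mouse 1 and -0.14 without Prlr+/- mouse 3. PPY had 9229, 9825, 7882 and 8632 scaled TPM against 7854, 7087 and 8053. Only βPrlR+/- mouse 3 fell within the range of the Prlr+/- mice, and the log2 difference was -0.21 ± 0.09 (SE), with an exact permutation p of 0.0857. PYY had 4987, 5028, 4844 and 4522 scaled TPM against 4627, 3851 and 3588. Here βPrlR+/- mouse 4 and Prlr+/- mouse 1 crossed, and the log2 difference was -0.28 ± 0.10 (SE), with an exact permutation p of 0.0571. GHRL had 9.54, 11.9, 16.3 and 12.3 scaled TPM against 11.3, 15.0 and 4.77, so that the lowest and the second highest mouse were both Prlr+/-. Its log2 difference was -0.40, with an exact permutation p of 0.514. With 1 added to scaled TPM the difference was -0.35 ± 0.41 (SE). On that footing it was -0.66 without Prlr+/- mouse 2 and 0.077 without Prlr+/- mouse 3. Log2 differences on TPM as deposited were -0.46 for Gcg, -0.38 for SST, -0.36 for PPY, -0.42 for PYY and -0.54 for GHRL. Their exact permutation p in that order was 0.0571, 0.143, 0.0286, 0.0286 and 0.371. Groups of Gcg, PPY and PYY did not overlap there, where 8.42% of all genes were lower in every Prlr+/- mouse.

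**Figure D2:**
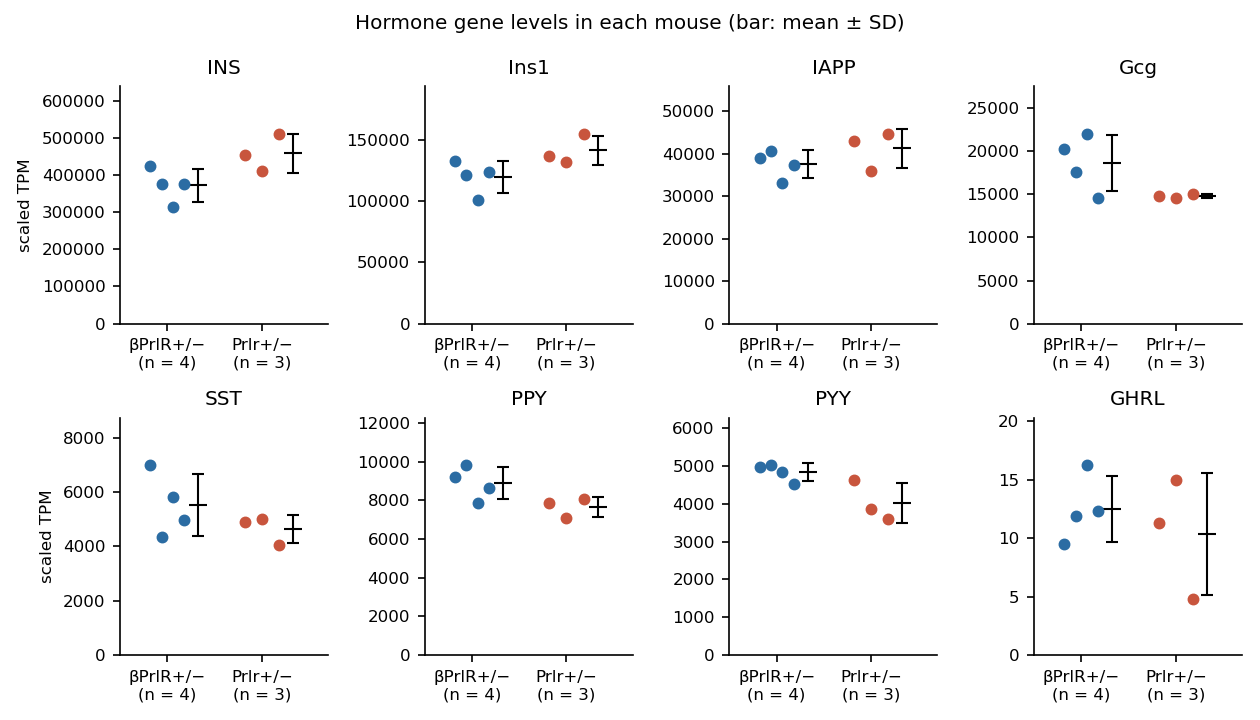
Scaled TPM (TPM divided by a median-ratio size factor) of the 8 hormone genes, each on its own linear axis from 0. Points are mice, 4 βPrlR+/- and 3 Prlr+/-, and bars give the mean ± SD. The means of INS, Ins1 and IAPP are higher in Prlr+/- mice and the other 5 means lower, and the groups overlap for each gene.

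None of the 8 genes passed the limma test across all genes, in which 10 of 14840 genes (0.0674%) had a Benjamini-Hochberg adjusted p under 0.05. The limma adjusted p was 0.9999 for all 8. At an unadjusted p under 0.05 limma counted 671 of the 14840 genes and none of the 8, the lowest being PYY at 0.109. In this fit the variance expected of a gene depends on its mean, and INS, the highest of the 8, lies at the far end of that relation. For INS the standard error was 0.96, although its SD around the group means was 0.17. For Ins1 it was 0.56 and for IAPP 0.33, against 0.12 and 0.11 from the mice alone. For Gcg, PPY and PYY it was 0.25, 0.18 and 0.15, against 0.16, 0.09 and 0.10. SST had 0.21 against 0.19, and GHRL 0.34 against 0.41. This fit could therefore hardly call INS, Ins1 or IAPP, and its p-values say little about them. With 1 prior variance for all genes, a setting chosen after seeing the data, the limma 95% interval was 0.02 to 0.58 for INS, -0.51 to -0.05 for PYY, -0.43 to 0.01 for PPY and -0.64 to 0.01 for Gcg. The intervals of Ins1 (-0.01 to 0.50), IAPP (-0.11 to 0.38), SST (-0.63 to 0.16) and GHRL (-1.15 to 0.45) also included 0. That limma fit gave PYY an unadjusted p of 0.0250 and INS 0.0396, where 709 of the 14840 genes had one under 0.05, and the limma adjusted p was 0.907 for PYY and 0.9999 for INS. On scaled TPM 0 of the 8 genes had groups that did not overlap, where 4.95% of all genes did, 1.84% being higher and 3.11% lower in Prlr+/- mice. On TPM as deposited 4 of the 8 did, where 8.71% of all genes did. INS was higher in every Prlr+/- mouse, which held for 0.29% of all genes, and Gcg, PPY and PYY were lower, which held for 8.42% of all genes. On scaled TPM, leaving out each mouse in turn kept the sign of the limma fold change for all of the 8 but GHRL.

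**Figure D3:**
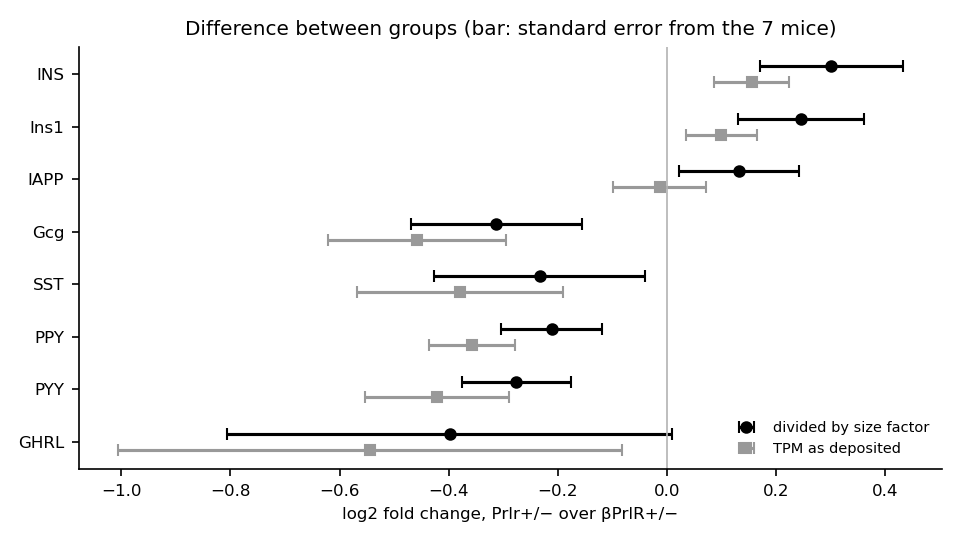
Log2 fold change of each hormone gene, Prlr+/- over βPrlR+/-, on scaled TPM (black circles) and on TPM as deposited (grey squares). Bars are standard errors from the 7 mice. Every value moves down by about the same step from scaled to deposited TPM, which takes IAPP from 0.13 to -0.014 and leaves the other signs as they are.

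The ratio of a pair of hormones within a mouse depends neither on the total nor on the size factor. INS over PPY was 46.0, 38.2, 39.9 and 43.4 with the βPrlR+/- deletion, against 57.6, 57.8 and 63.6 in the whole-body heterozygotes. The groups stood apart, with a log2 difference of 0.51 ± 0.08 (SE) and an exact permutation p of 0.0286, the smallest this design can give. INS over PYY was 85.1, 74.7, 64.9 and 82.9 against 97.8, 106 and 143. These groups also stood apart, by 0.58 ± 0.17 (SE) with an exact permutation p of 0.0286. IAPP over PPY was 4.22, 4.15, 4.22 and 4.33 against 5.47, 5.08 and 5.56. This ratio varied little within a group, and the difference was 0.34 ± 0.04 (SE) with an exact permutation p of 0.0286. INS over Gcg was 20.9, 21.3, 14.2 and 25.8 against 30.6, 28.1 and 33.9. The groups did not overlap, and the log2 difference was 0.61 ± 0.22 (SE) with an exact permutation p of 0.0571. INS over SST was 60.7, 86.7, 54.1 and 75.3 against 92.7, 81.9 and 126. Here βPrlR+/- mouse 2 lay within the Prlr+/- range, with a log2 difference of 0.53 ± 0.24 (SE) and an exact permutation p of 0.0857.

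All 28 pairs were tested, with adjustment over the 28. The smallest exact permutation p of 0.0286 was reached by 6 pairs, which were INS, Ins1 and IAPP, each over PPY and over PYY. Their Benjamini-Hochberg adjusted p was 0.133, so no pair passed 0.05. In 8 of the 28 pairs the groups did not overlap, the other two being INS and Ins1 over Gcg. The background differs by denominator. Of all other genes tested, 21.2% had a ratio to INS that was lower in every Prlr+/- mouse than in every βPrlR+/- mouse, 17.6% such a ratio to Ins1 and 7.88% such a ratio to IAPP. All 12 ratios of INS, Ins1 or IAPP to Gcg, SST, PPY or PYY were higher in Prlr+/- mice on average, by 0.34 to 0.61 on the log2 scale, and they remained so with any 1 mouse left out, at 0.21 to 0.73. These 12 share their members and are not independent.

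**Figure D4:**
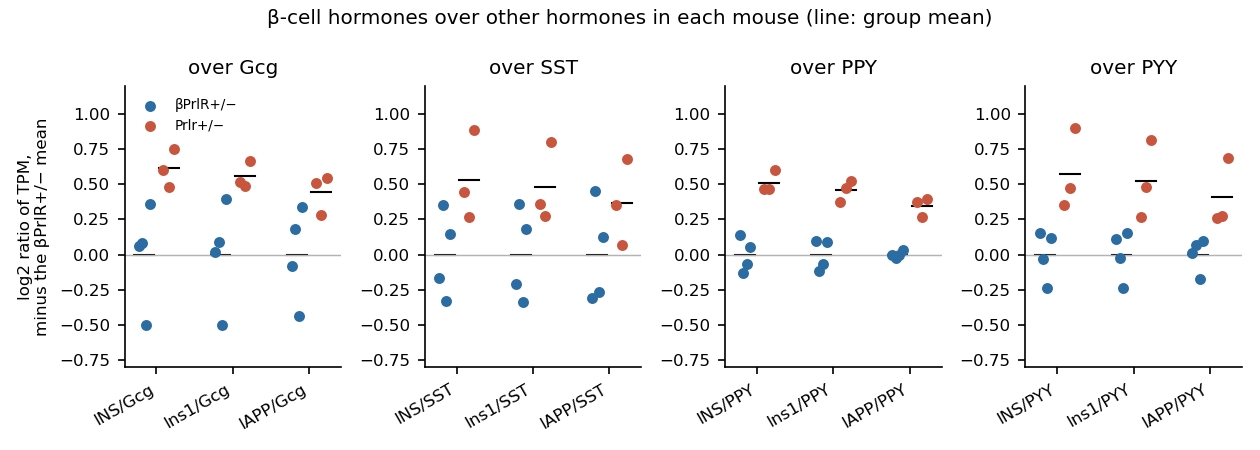
Log2 ratio of INS, Ins1 and IAPP to Gcg, SST, PPY and PYY in each mouse, with the mean of the βPrlR+/- mice set to 0. Points are mice, and lines are the means of the 4 βPrlR+/- and the 3 Prlr+/- mice. Over PPY and PYY the groups stand apart, and over SST they overlap.

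Smaller differences were found among the β-cell hormones and among the hormones of other cells. INS over Ins1 was 3.19, 3.08, 3.11 and 3.03 in βPrlR+/- mice and 3.30, 3.09 and 3.29 in Prlr+/- mice. The groups overlapped, and the log2 difference was 0.06 ± 0.03 (SE), with an exact permutation p of 0.171. It was 0.087 without Prlr+/- mouse 2. INS over IAPP was 10.9, 9.21, 9.46 and 10.03 against 10.5, 11.4 and 11.4. Here too the groups overlapped, with a log2 difference of 0.17 ± 0.07 (SE) and an exact permutation p of 0.0857. Among Gcg, SST, PPY and PYY the 6 log2 differences lay between -0.10 and 0.06, with exact permutation p from 0.657 to 0.943. Their standard errors were 0.12 to 0.25, so differences of that size between these hormones could not be seen with these mice. In terms of both insulin genes together, insulin over Gcg was 27.2 ± 6.36 in βPrlR+/- mice (SD, n = 4) and 40.4 ± 3.53 in Prlr+/- mice (SD, n = 3), and insulin over PPY was 55.4 ± 4.48 and 78.2 ± 4.14.

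**Figure D5:**
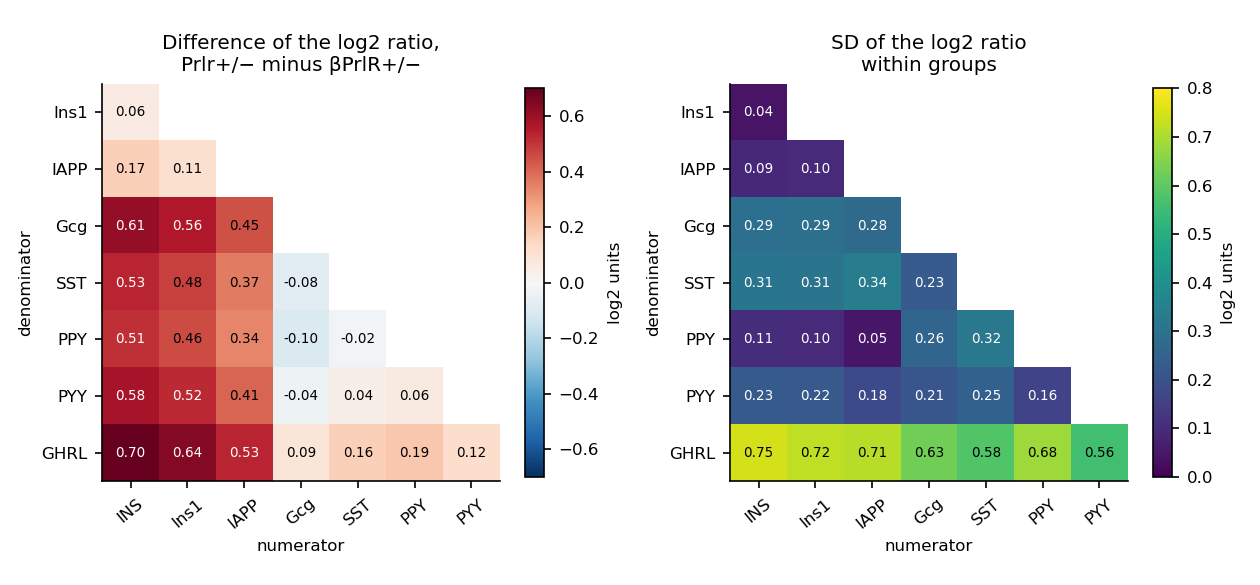
The 28 ratios between hormones, numerator in columns and denominator in rows. The left matrix gives the difference of the mean log2 ratio, Prlr+/- minus βPrlR+/-, and the right matrix the SD of the log2 ratio around the group means. The 12 ratios of INS, Ins1 and IAPP to Gcg, SST, PPY and PYY are the block of values from 0.34 to 0.61, and every ratio to GHRL has an SD of 0.56 or more.

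The spread between mice of a group differed by hormone. The SD of log2 scaled TPM around the group means was 0.12 for PPY, 0.13 for PYY, 0.14 for IAPP, 0.15 for Ins1, 0.17 for INS, 0.20 for Gcg, 0.25 for SST and 0.53 for GHRL. These and the other SDs of single genes were computed with 1 added to each value, and those of ratios without. Across all 14840 genes tested the median SD was 0.13, and among the 543 with a mean of at least 100 TPM it was 0.14. On TPM as deposited the order differed, with Ins1 at 0.085 and INS at 0.091 the lowest, then PPY at 0.10, IAPP at 0.11, PYY at 0.17, Gcg at 0.21, SST at 0.25 and GHRL at 0.60. On scaled TPM PPY and PYY lay near the middle of all genes, while SST lay above 85.3% of them and GHRL above 95.3%. Part of the spread was common to hormones. The log2 ratio of INS to Ins1 had an SD of only 0.04 within groups and that of IAPP to PPY 0.05, both below the SD of either member. INS to PPY had 0.11 and PPY to PYY 0.16. The ratios of Gcg to SST and of SST to PPY had 0.23 and 0.32, where Gcg, SST and PPY alone had 0.20, 0.25 and 0.12. IAPP and PPY, from different cell types, therefore kept a closer proportion within a group than Gcg and SST did.

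The genes whose levels followed each hormone most closely over the 7 mice, after the group means were subtracted, were taken from 6169 genes with a mean of at least 10 TPM. Pearson correlations of log2 values served as a measure of likeness, and with 7 mice many genes reach high values. For INS they were DNAJC14 (0.997), Ndufs5 (0.990) and CANT1 (0.988), and CANT1 (0.981) was also among those of Ins1, behind SEPT9 (0.988). For SST they were PAX6 (0.982), a transcription factor of all islet endocrine cells, SYTL4 (0.974), a granule protein of the exocytosis machinery, and ARG1 (0.966). For PPY they were ATP6V0E2 (0.996), a subunit of the proton pump of vesicles, CLPTM1 (0.992) and Slc25a1 (0.992), the mitochondrial citrate carrier. IAPP had 130 genes above 0.95, PPY 90 and INS 52, whereas Gcg had 0 and was closest to MTHFD1 (0.946). PYY was closest to VWA8 (0.985) and GHRL to TRAPPC13 (0.982). IAPP was closest to UBE2E2 (0.993).

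The transcripts behind these values were in stable proportion for the abundant hormones. The 3 Ins2 transcripts held 83.4% ± 0.613, 16.2% ± 0.546 and 0.469% ± 0.0719 of INS in βPrlR+/- mice (SD, n = 4) and 83.6% ± 0.963, 16.0% ± 0.938 and 0.413% ± 0.0256 in Prlr+/- mice (SD, n = 3). The 2 transcripts of PYY held on average 85.4% and 14.6% with the β-cell deletion, against 85.2% and 14.8% in Prlr+/- mice. Ins1, IAPP, Gcg, SST and PPY each had 1 transcript. GHRL was divided among 6, of which 1 was listed at 0 in all mice, and the share of another ran from 8.77% to 55.6% between mice.

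Upstream sequences are shown for Ins1 and Iapp, as β-cell hormones, and for Ppy and Pyy, whose ratios to them stood apart between groups. They are the 250 bases before the annotated start, from RefSeq on GRCm38.p6. Capitals mark TAAT, the core bound by homeodomain factors such as PDX1, and TATAAA, the TATA box, on either strand. Ppy and Pyy are neighbours on chromosome 11 with 0 annotated genes between them. The windows of 6 of the 8 genes were searched.
Ins1, chr19:52264047-52264296, plus strand: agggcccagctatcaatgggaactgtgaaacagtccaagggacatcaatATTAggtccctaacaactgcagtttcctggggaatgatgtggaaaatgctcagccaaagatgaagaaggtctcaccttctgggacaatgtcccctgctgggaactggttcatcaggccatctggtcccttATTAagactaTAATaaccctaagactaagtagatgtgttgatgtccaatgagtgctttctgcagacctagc
Iapp, chr6:142298175-142298424, plus strand: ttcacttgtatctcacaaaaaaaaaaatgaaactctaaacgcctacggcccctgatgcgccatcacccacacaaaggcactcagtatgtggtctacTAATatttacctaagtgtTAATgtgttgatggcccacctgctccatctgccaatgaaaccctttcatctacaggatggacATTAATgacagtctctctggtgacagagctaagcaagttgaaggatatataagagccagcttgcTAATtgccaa
Ppy, chr11:102101320-102101569, minus strand: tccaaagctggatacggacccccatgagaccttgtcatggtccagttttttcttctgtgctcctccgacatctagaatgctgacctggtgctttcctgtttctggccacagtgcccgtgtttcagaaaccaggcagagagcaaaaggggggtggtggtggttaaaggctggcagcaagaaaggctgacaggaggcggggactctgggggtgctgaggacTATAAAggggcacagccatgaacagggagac
Pyy, chr11:102107833-102108082, minus strand: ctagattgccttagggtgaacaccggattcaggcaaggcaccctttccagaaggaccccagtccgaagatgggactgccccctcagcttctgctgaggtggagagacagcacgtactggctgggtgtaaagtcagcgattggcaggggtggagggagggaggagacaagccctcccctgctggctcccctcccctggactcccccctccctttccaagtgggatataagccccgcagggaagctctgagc

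TAAT occurs 3 times in the Ins1 window, 5 times in that of Iapp, 2 times in that of Gcg (chr2:62483654-62483903, minus strand) and once in that of Sst (chr16:23890845-23891094, minus strand), and 0 times in those of Ppy and Pyy. Of 27025 windows of this length, 55.3% hold TAAT on either strand. TATAAA occurs 2 times in the Gcg window and once in that of Ppy, where it begins 31 bases before the start, against 13.0% of all windows. The E-box CANNTG, bound by factors such as NEUROD1, occurs 2 times in Ins1, 3 in Iapp, 3 in Gcg, 1 in Sst, 0 in Ppy and 1 in Pyy, against 66.0% of all windows. TTCNNNGAA, the motif of STAT5, through which the prolactin receptor signals, is in 0 of the 6 windows and in 7.18% of all windows. These are matches of letters in short windows and no more.

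Other genes of hormone production and action are given next, from lists. Of the prohormone processing genes, 9 were tested and 0 were called, with a median log2 fold change of -0.03 beside 0.0042 over all genes. The highest were CPE, which trims the ends of cut precursors, at 1565 ± 68.6 scaled TPM in βPrlR+/- mice (SD, n = 4) and 1591 ± 167 in Prlr+/- mice (SD, n = 3), and the convertase PCSK2, at 806 ± 31.5 and 807 ± 69.7. SCG5, the chaperone of PCSK2, had 517 ± 14.1 and 511 ± 93.2, and PCSK1N, an inhibitor of the convertase PCSK1, had 415 ± 42.1 and 383 ± 27.1. The means of these genes were thus close between groups. Of 20 receptor genes for islet and gut hormones, 12 were tested and 0 were called, with a median of -0.04. GLP1R, the receptor of the incretin GLP-1, which is cut from the Gcg precursor in the gut, had 179, 129, 136 and 101 scaled TPM in βPrlR+/- mice and 137, 205 and 179 in Prlr+/- mice, and the groups overlapped. SSTR3, a somatostatin receptor, had means of 94.8 and 93.8, GIPR, the other incretin receptor, 50.99 and 51.5, and GCGR, the glucagon receptor, 14.7 and 17.6. Of the 12, INSR, the insulin receptor, and RAMP3, a partner of calcitonin-family receptors, had groups that did not overlap, both lower in Prlr+/- mice, as 3.11% of all genes did.

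Of 31 other peptide hormone genes in the table, 18 were tested, 0 were called, and 14 had a log2 fold change below 0, with a median of -0.24. UCN3, urocortin 3 of mature β-cells, had a higher mean in Prlr+/- mice, at 323, 178, 214 and 141 scaled TPM in βPrlR+/- mice and 343, 317 and 255 in Prlr+/- mice. Its groups overlapped through βPrlR+/- mouse 1. NUCB2, the precursor of nesfatin-1, had 118 ± 7.40 and 125 ± 6.00. The neuropeptides VIP, at 45.2, 158, 97.4 and 111 against 68.3, 43.0 and 65.2, and NPY, at 32.8, 62.4, 32.8 and 32.9 against 26.8, 22.5 and 25.1, had lower means in Prlr+/- mice. Of the 18 tested, NPY and IGF2 had groups that did not overlap, both lower in Prlr+/- mice, as 3.11% of all genes did.

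Markers of the islet cell types and of other cells in the islet are given beside the hormones. Of 15 β-cell markers 13 had a log2 fold change above 0, with a median of 0.29, and their summed level was 2688 to 3401 scaled TPM in βPrlR+/- mice against 3309, 4565 and 3281 in Prlr+/- mice 1 to 3. Prlr+/- mice 1 and 3 lay within the βPrlR+/- range. G6PC2, a glucose-6-phosphatase of islets, made up much of the sum, at 1275, 2230 and 1211 in these mice. Of 8 α-cell markers tested 7 were below 0, with a median of -0.16. Their sum was 674 to 996 scaled TPM in βPrlR+/- mice and 659 to 686 in Prlr+/- mice, and most of it was TTR, at 896, 909, 873 and 590 against 573, 600 and 585. In TTR as in Gcg, βPrlR+/- mouse 4 lay with the Prlr+/- mice. Of 5 δ-cell markers tested 4 were below 0, and their sum was 170 to 239 and 168 to 224. Most of it was SSTR3, already given as a receptor, with means of 94.8 and 93.8, and RBP4, with means of 90.8 and 94.6. None of these β-, α- and δ-cell markers was called by limma. Digestive enzymes and other acinar markers, which come from exocrine tissue attached to the islets, summed to 54704, 6917, 57367 and 20398 scaled TPM in βPrlR+/- mice and 18839, 46535 and 24779 in Prlr+/- mice. None of the 18 acinar markers tested was called, 16 were above 0, and their median was 0.10. With the acinar markers left out of the total, the difference in share of TPM, Prlr+/- minus βPrlR+/-, was 4.19 percentage points for INS against 4.36 with them, -0.587 against -0.549 for Gcg, and 3.84 against 4.17 for all 8 hormones. Without βPrlR+/- mouse 3, whose hormone share was the lowest, the difference for all 8 was 2.55 points. All 10 endothelial markers were below 0 and 0 were called, with a median of -0.22 and a sum of 203 to 241 scaled TPM in βPrlR+/- mice and 170 to 208 in Prlr+/- mice. Of 7 neuron and glia markers tested, 6 were below 0 with a median of -0.32, and their sum was 48.3 to 56.3 against 36.4 to 46.95. The 2 called by limma were both lower in Prlr+/- mice, where 10 of all 14840 genes (0.0674%) were called in either direction. They were PRPH, the neuronal filament peripherin, at 5.47 ± 0.170 (SD, n = 4) against 2.84 ± 0.263 (SD, n = 3), with a limma adjusted p of 0.0243, and STMN2, a neuronal microtubule protein, at 7.98 ± 0.521 against 4.11 ± 0.189, with a limma adjusted p of 0.0173. The part of the islet cell, endothelial and neuronal markers in the hormone differences was not tested.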

How the data were processed

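Islet RNA of 7 pregnant mice was sequenced, 4 βPrlR+/- and 3 Prlr+/-, grouped by the tissue of the deletion in the labels. The authors made strand-specific libraries of poly(A) RNA and quantified RefSeq transcripts of the mouse by Kallisto 0.42.4, a version that the submitters' processing notes also give. No genome build is given in the sources used here. The deposited values, called FPKM in the methods, sum to 1000000 in each mouse and were handled as TPM, and a gene's value equals the sum of its transcripts. Since TPM does not retain depth, counting intervals are left out, and p-values measure the spread between mice.

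Each mouse's TPM was scaled by its median-ratio size factor. Genes averaging 0.5 TPM or more (14840) entered limma 3.58.1 in R 4.3.3 as log2(scaled TPM + 1), which understates changes of low genes, with a mean-dependent variance and Benjamini-Hochberg adjustment. The model was tested on simulated data. Single levels and the 28 ratios were compared by two-sided exact permutation over 35 splits. Named genes were the 8 hormones, the 4 highest genes of the processing, receptor and other peptide hormone lists, markers whose values are given beside a result, and the 3 genes closest to a hormone. IGF2, INSR and RAMP3 were named after their values were seen. The members and the lists were chosen with earlier results of these data known. Alternatives were TPM as deposited, other scalings, pseudocounts and filters, a robust fit, the most abundant transcript alone, shares without acinar markers in the total, each mouse left out and, added after seeing the data, 1 prior variance for all genes. Python 3.11.15 with numpy 2.4.6, pandas 2.3.3, biopython 1.88 and matplotlib 3.10.9 were used for the other steps.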

Additional observations from a re-analysis of the deposited data

Results flagged for a closer look

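Each of 46 hormone levels, ratios and shares in the 4 βPrlR+/- mice was checked for a mouse far from the others, a check that chance meets in about 1 in 20 groups, and 4 values met it. In βPrlR+/- mouse 3, INS took 34.9% of all TPM, INS and Ins1 together 46.1% and all 8 hormones together 54.3%, where the other 3 mice lay between 60.3% and 61.5% for all 8. These 3 values are not independent, since INS is the largest part of each. That mouse also had the highest acinar sum, 57367 scaled TPM, but βPrlR+/- mouse 1, with 54704, had an INS share of 40.1%, and the part of acinar RNA in the share of a single mouse was not tested. In βPrlR+/- mouse 1 the ratio of SST to GHRL was 733, against 357 to 404 in the other 3 mice of the group, with the highest SST level and the lowest GHRL level of the group.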

How the results depend on the processing

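The count of all genes past the limma adjusted p of 0.05 was 10, and it was 4 when the total without the 8 hormones set the scale, 18 with a pseudocount of 0.1, 4 with no filter, and 2 to 13 with a mouse left out (2 without βPrlR+/- mouse 4, and 5 without βPrlR+/- mouse 1, Prlr+/- mouse 1 or Prlr+/- mouse 2). The cause was not tested. None of the 8 hormones passed under any setting run, and their limma adjusted p ranged from 0.590 to 0.99999. Every setting but that with 1 prior variance used the mean-dependent variance, so they are not separate checks of the highest hormones. The log2 fold change of IAPP turned to -0.014 on TPM as deposited. With a mouse left out, that of GHRL ranged from -0.66 to 0.077, and log2 ratio differences that changed sign ranged from -0.015 to 0.97 for IAPP to GHRL, -0.19 to 0.0101 for Gcg to SST, -0.20 to 0.043 for Gcg to PPY, -0.13 to 0.069 for Gcg to PYY, -0.41 to 0.44 for Gcg to GHRL, -0.18 to 0.11 for SST to PPY, -0.085 to 0.15 for SST to PYY, -0.22 to 0.45 for SST to GHRL, -0.051 to 0.15 for PPY to PYY, -0.33 to 0.59 for PPY to GHRL and -0.28 to 0.49 for PYY to GHRL. Of the other recomputed values, those with a limma or ratio adjusted p kept their direction and side of the threshold. The exact permutation p of single levels did cross 0.05, at 0.0286 for INS, PPY and PYY on TPM as deposited. On scaled TPM it was 0.0857, 0.0857 and 0.0571 for these genes. Differences in share, which had no test, moved by less than the spread between mice, among them that of IAPP, which was -0.0395 percentage points and turned to 0.105 without βPrlR+/- mouse 2 and to 0.112 without Prlr+/- mouse 2. Without βPrlR+/- mouse 3 the difference for all 8 together was 2.55 points against 4.17, and for Ins1 0.440 against 0.867. No paired analysis was possible because the labels give each mouse its own number and no number is shared between the groups. The methods give a range of reads per sample, but TPM holds neither the depth of each mouse nor read counts. The counting error of GHRL, at 4.77 to 16.3 scaled TPM, was therefore not computed.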
